A study of Mus musculus with 4 samples.

Results

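The secreted growth factors described here were 10 genes in 4 groups: Vegfa, Vegfb and Pgf of the VEGF family, the EGF receptor ligands Areg, Ereg and Hbegf, the platelet-derived growth factors Pdgfa and Pdgfb, and the factors Igf1 and Hgf. They were chosen by name, and their rows in the count table were found through the identifier that GENCODE release M21 gives for each symbol. All 10 were among the 54146 genes listed. They were measured by RNA sequencing in tumor associated macrophages (TAMs) from MCA205 tumors, a transplanted mouse fibrosarcoma, to learn how the nonselective beta blocker propranolol alters these cells. The hosts were C57BL/6 females aged 8 to 16 weeks, injected with tumor cells under the skin of the flank. Control mice are labelled as vehicle, and propranolol treated mice drank water with 0.5 g/L of the drug from the day of tumor cell injection. The labels name no transgene or deletion in either group. CD45+ cells were enriched with magnetic beads in both groups, and live CD11b+F4/80+ cells were then sorted by FACS. RNA with an integrity number of more than 7.5 was used, and 400 ng per sample was enriched for polyadenylated transcripts.

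The data were 2 control and 2 propranolol libraries, numbered as replicates 1 and 2 in each group. Their counts added up to 13798249 and 23018142 in the control libraries and to 39818103 and 16424081 in the propranolol libraries. The study calls them biological replicates, but its sources do not say whether a library came from 1 mouse or a pool, and the p-values measure the spread between these libraries. An exact permutation of 2 against 2 libraries cannot give a p below 0.333. The comparison therefore rests on the edgeR quasi-likelihood test across the 14688 genes with enough counts, with Benjamini-Hochberg adjustment over all of them. Changed genes were those with both an adjusted p under 0.05 and a difference above 1.5-fold. Each library was also left out in turn, and the spread in such a fit comes from the group that still has 2 libraries. Abundance is given as CPM, the counts scaled to the size of the library after TMM adjustment, and group values are mean ± SD of 2 libraries.

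These factors act on neighbouring cells through receptor tyrosine kinases. VEGF family proteins bind receptors on endothelial cells and drive the sprouting of vessels, PDGF proteins recruit pericytes and fibroblasts, and the EGF receptor ligands are made as membrane-bound precursors that are released by proteases. IGF1 and HGF support growth, survival and motility of epithelial and tumor cells, and macrophages are a known source of several of these proteins in tumors and in wound repair.

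Of the 10 genes, 9 had enough counts to be tested, and 3 of these were changed: Areg was higher in the propranolol libraries, and Igf1 and Hgf were lower. Among all tested genes 27.8% were changed, 12.2% higher and 15.6% lower, so 3 of 9 was near the background. Vegfb and Pdgfa also passed the adjusted p with differences under 1.5-fold, so that 5 of the 9 passed it at any fold, against 42.2% of all tested genes. Vegfa, Pgf, Hbegf and Pdgfb passed neither criterion. The median log2 fold change was 0.19 over the 9 genes and -0.02 over all tested genes. In 6 of the 9 genes the control and propranolol libraries did not overlap in CPM, 4 with propranolol above (Areg, Vegfb, Hbegf and Pdgfa) and 2 with propranolol below (Igf1 and Hgf). Non-overlapping groups were found for 72.6% of all tested genes, with propranolol above in 35.8% and below in 36.9%.

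**Figure D1:**
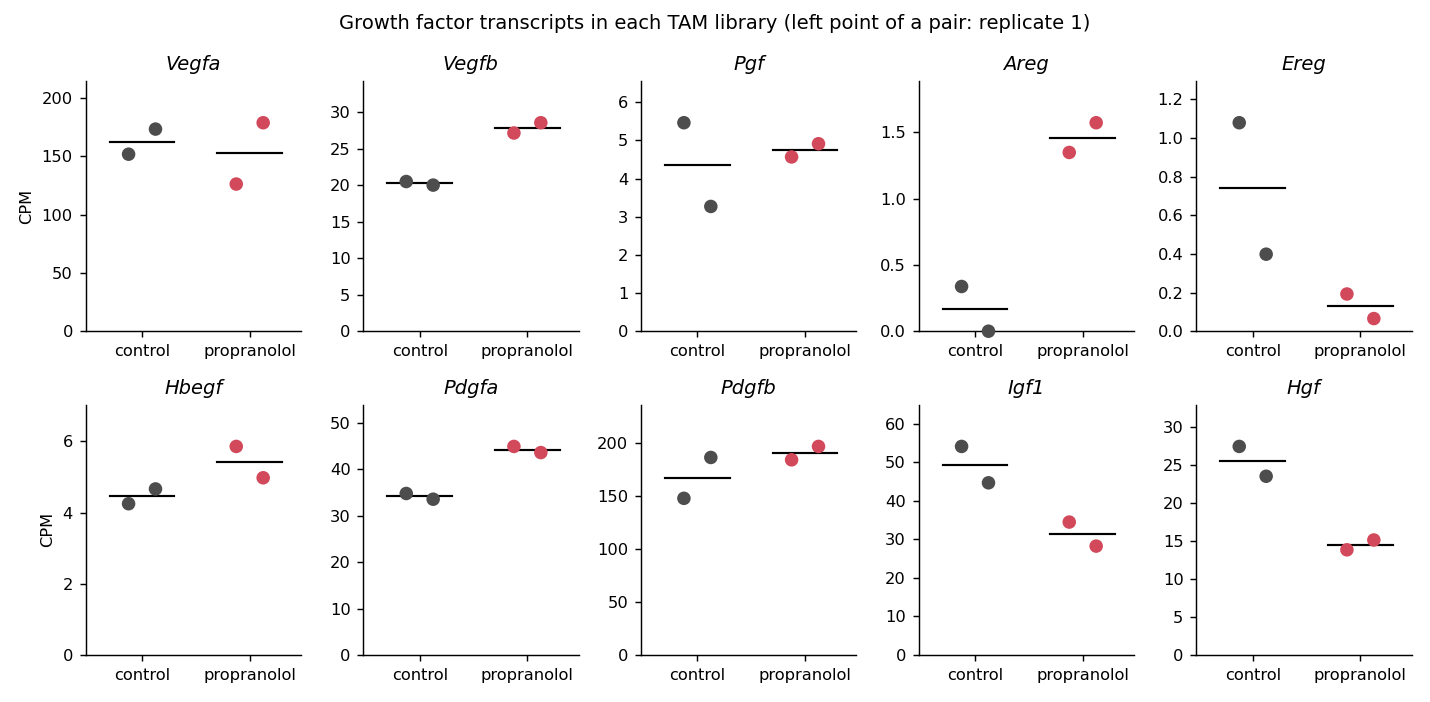
CPM of each growth factor gene (vertical axes, each from 0 with its own scale) in the 2 control (grey) and 2 propranolol (red) libraries, with a line at the mean of each group. The groups separate upward for Areg, Vegfb, Hbegf and Pdgfa and downward for Igf1, Hgf and the untested Ereg, and overlap for Vegfa, Pgf and Pdgfb.

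The sorted cells were checked against markers of macrophages and of other cells. All 12 macrophage markers examined were tested and none was at 0, with a summed CPM of 20016 and 19090 in control against 25185 and 22984 in propranolol libraries. Leading the list were Lyz2, encoding lysozyme, and C1qa, a chain of complement C1q. Of the 12 markers, 3 were higher after propranolol (Csf1r, Cd14 and Cd163) and none was lower, while with the trend with GC content removed, described below, 2 were higher (Cd163 and Mrc1). Transcripts of other cell types were present as well. Of 12 markers of fibroblasts and tumor cells 9 were lower after propranolol, and only Fn1 was higher, a fibronectin gene that macrophages also express. All 12 markers summed to 5910 and 3452 CPM in control and to 5062 and 4532 CPM in propranolol libraries, with Fn1 the most abundant. Without Fn1, they summed to 3627 CPM in control replicate 1, 1390 in control replicate 2, and 797 and 832 after propranolol, and Col3a1 was the most abundant of the rest. Control replicate 1 had the highest sum of the 4 libraries with and without Fn1, whereas control replicate 2 had the lowest with it. With the GC trend (described below) removed, 7 of the 12 were lower. Of 11 T and NK cell markers, all tested, 7 were lower, with sums of 236 and 264 CPM in control and 116 and 74.1 CPM in propranolol libraries, led by Cd8a and Nkg7. Of 12 neutrophil markers 7 were tested and 4 of them were higher, with sums of 151 and 183 against 311 and 327 CPM, led by Csf3r and S100a9. Of 8 dendritic cell markers 4 were lower, although the sums, which are led by Itgax and Fscn1, were 534 and 586 in control and 556 and 502 CPM in propranolol libraries. With the GC trend removed 2 of the 8 were lower. Without Itgax, an integrin gene that macrophages also express, they were 83.3 and 65.8 against 47.1 and 44.1 CPM. Of the endothelial markers 8 were tested and 1 was higher (Cdh5), with sums led by Pecam1 and Vwf of 56.0 and 50.5 against 66.2 and 66.1 CPM. With the GC trend removed none of these 8 was called, while 6 T and NK cell markers were lower and 5 neutrophil markers were higher. Eosinophil markers, with Siglecf and Ccr3 leading and Epx and Ear1 at 0, summed to no more than 7.18 CPM in any library, and none of the 3 tested was changed. In such bulk samples, fewer cells of a type and less RNA per cell cannot be told apart.

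Vegfa encodes the main ligand of the endothelial receptor KDR and is the principal driver of new vessel growth. The gene lies on the minus strand at chr17:46016993-46032369 (GRCm38) and was among the more abundant genes of these cells, in the top 9.40% of tested genes by TPM, the count per exon length scaled to the library. It reached 152 and 173 CPM in the control libraries and 126 and 179 CPM in the propranolol libraries. The lowest and the highest value were both propranolol libraries, so the groups overlapped. The means were 163 ± 15.2 CPM in control and 153 ± 37.2 CPM in propranolol libraries, with a log2 fold change of -0.10 (SE 0.15, edgeR adjusted p = 0.641). The sign of this difference depended on single libraries: it was 0.02 without control replicate 2 and 0.14 without propranolol replicate 1, while without propranolol replicate 2 it was -0.33 and passed the adjusted p under the fold criterion (edgeR adjusted p = 0.0390).

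Vegfb, at chr19:6982473-6987651, encodes a ligand of FLT1 with little effect on sprouting and a role in cardiac and metabolic tissue. It was measured at 20.5 and 20.0 CPM in the control libraries and at 27.1 and 28.6 CPM in the propranolol libraries. Replicates were close together in both groups and the groups did not overlap. The log2 fold change was 0.46 (SE 0.13, edgeR adjusted p = 0.0192), a 1.37-fold difference that is under the fold criterion. The edgeR adjusted p was 0.0768 without control replicate 2 and 0.194 with scaling by library size alone. Pgf, at chr12:85166635-85177790, encodes placental growth factor, a further FLT1 ligand. Its CPM was 5.46 and 3.27 in control libraries, against 4.57 and 4.91 after propranolol. Both propranolol values lay between the control values, and the log2 fold change was 0.13 (SE 0.32, edgeR adjusted p = 0.771).

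Areg encodes amphiregulin, an EGF receptor ligand that immune cells release during tissue repair. The gene lies on the plus strand at chr5:91139599-91148432. Its counts were 5 and 0 in control against 49 and 24 in propranolol libraries, which correspond to 0.337 and 0 CPM against 1.35 and 1.57 CPM. Both propranolol libraries were above both control libraries, at a level that was low throughout: by mean TPM, a level per exon length, the gene stood 11956th of 14681. The log2 fold change was 3.36 (SE 0.97, edgeR adjusted p = 0.0186), a fitted difference of 10.3-fold. From the counts alone, 5 against 73, the ratio was 11.3 with a 95% interval of 4.62 to 35.8 that covers counting error only. All control counts came from replicate 1. Without control replicate 2 the log2 fold change was 2.10 and the edgeR adjusted p was 0.0735, which ends the call. Over all alternatives its adjusted p ranged from 7.5e-05 to 0.0771. Without control replicate 1, in which case no control count is left, the fold against an assumed floor of 3 counts was 11.8. That value leaves out the counting error and spread of the propranolol libraries, so it is not a lower limit. When the trend with GC content described below was removed, the log2 fold change was 3.48 (edgeR adjusted p = 0.0292). Basophil and mast cell markers, of which Tpsb2 and Mcpt4 were the most abundant and Mcpt8, Fcer1a and Ms4a2 were at 0 in all 4 libraries, summed to 0.472 and 0.159 CPM in control and to 0.688 and 1.38 CPM in propranolol libraries, and none of the 8 had enough counts to be tested. Some neutrophil and platelet markers were higher, as Areg was. Of 7 neutrophil markers tested 4 were called higher, and Ltf, not called, was at -0.33. The sort for CD11b+F4/80+ cells should leave out both cell types, and their part in the difference of Areg was not tested. Of 8 platelet markers 5 were tested and 2 were higher (Pf4 and Ppbp), and Gp1bb was at 0. Itga2b (-0.52) and Gp1ba (0.13) were not called. Pf4, a chemokine gene that macrophages also express, was the most abundant of the list. Without Pf4, the platelet markers summed to 5.80 and 6.26 CPM in control and to 8.99 and 16.0 CPM in propranolol libraries. Of these sums Ppbp held 1.62 and 1.75 CPM in control and 6.19 and 10.1 CPM in propranolol libraries.

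Beta-adrenergic receptors signal through cAMP. The promoter of the member with the largest change is shown as a description, with its match to the cAMP response element. The part of this element in the difference of Areg was not tested. The 250 bases before the Areg start site, chr5:91139349-91139598 on the plus strand (RefSeq, GRCm38.p6), carry the full element TGACGTCA in capitals 61 bases before the start, and in capitals as well a separate CGTCA, the reverse complement of the shorter core TGACG, 115 bases before the start.

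Areg: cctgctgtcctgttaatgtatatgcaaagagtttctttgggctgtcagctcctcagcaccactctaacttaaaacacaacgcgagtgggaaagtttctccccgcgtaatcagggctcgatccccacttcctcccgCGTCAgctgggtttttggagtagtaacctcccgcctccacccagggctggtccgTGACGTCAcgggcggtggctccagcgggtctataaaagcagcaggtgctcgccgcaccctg

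Both strands were searched for 5 motifs: TGACGTCA, its core TGACG, the hypoxia response core ACGTG, the AP-1 site TGACTCA and the GC box CCGCCC. TGACGTCA was found in 1.55% of 32851 promoter windows of this length, and it contains TGACG on both strands. RefSeq windows were matched for 7 of the 10 growth factor genes, 11 windows in all, and not for Ereg, Hbegf and Pdgfb. Areg alone among the 7 held TGACGTCA. The core TGACG was in 3 of the 11 windows, from Areg, Pdgfa and Vegfa, against 17.8% of all windows. ACGTG was in 1 window of Vegfa, overlapping TGACG there, against 16.6% of all windows. TGACTCA was in none, against 4.46%, and CCGCCC was in 7 of the 11 windows, from 5 genes, against 32.7% of all windows. These are matches of letters, and binding was not measured.

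Ereg encodes epiregulin, a further EGF receptor ligand, and lies next to Areg at chr5:91074622-91093646, with 45952 bases between the genes. It went the other way from Areg, with 16 and 10 counts in the control libraries against 7 and 1 in the propranolol libraries, which is 1.08 and 0.399 CPM against 0.193 and 0.0655 CPM. Both propranolol values were below both control values. The gene was below the count filter and has no test in the edgeR comparison. The ratio of control to propranolol counts, 26 against 8 and scaled to library size, was 4.20 with a counting interval of 1.85 to 10.7. When no filter was applied, its log2 fold change was -2.21 (SE 0.98, edgeR adjusted p = 0.0943). With 1 library left out, when the filter let the gene pass, it was between -3.31 and -1.40, with edgeR adjusted p-values from 0.0713 to 0.534. The control library with more Ereg was replicate 1, which also held the most fibroblast and tumor cell transcripts, and the part of these in the difference was not tested.

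Hbegf encodes heparin-binding EGF-like growth factor, which is shed from the membrane. Its CPM was 4.25 and 4.66 in control libraries, against 5.86 and 4.98 after propranolol. The propranolol libraries were both higher than the control libraries, and the log2 fold change of 0.29 (SE 0.27) did not pass the test (edgeR adjusted p = 0.427). Of the 3 EGF receptor ligands, Areg was called higher, Hbegf was not called, and Ereg was too low to test. Differences between the 3 were not tested.

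Pdgfb encodes the B chain of platelet-derived growth factor, which attracts pericytes to new vessels. It lies at chr15:79995874-80014977 and was in the top 7.89% of tested genes by TPM. It reached 147 and 186 CPM in the control and 184 and 196 CPM in the propranolol libraries. The second control library was level with the first propranolol library, the groups overlapped, and the log2 fold change was 0.19 (SE 0.12, edgeR adjusted p = 0.244). Pdgfa, at chr5:138976014-138997370, encodes the A chain, which signals through PDGFRA. It was measured at 34.8 and 33.6 CPM in the control and at 44.9 and 43.6 CPM in the propranolol libraries. Replicates differed little and the groups were apart, with a log2 fold change of 0.38 (SE 0.12, edgeR adjusted p = 0.0254), or 1.30-fold. The adjusted p did not pass without control replicate 1 (0.0512), control replicate 2 (0.122) or propranolol replicate 1 (0.0517), nor with scaling by library size alone (0.338). Of the exon length of Pdgfa 26.1% overlaps the antisense gene 6330403L08Rik, and since the counting options in the study's methods include no strand setting, reads from the 2 genes cannot be told apart there.

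Igf1 encodes insulin-like growth factor 1, which macrophages secrete in repairing tissue. It lies at chr10:87858265-87937042 on the plus strand. Its CPM was 54.1 and 44.6 in control libraries, against 34.5 and 28.2 after propranolol. Both propranolol libraries were below both control libraries, at 31.3 ± 4.41 against 49.4 ± 6.67 CPM. The log2 fold change was -0.64 (SE 0.15, edgeR adjusted p = 0.00570), or 0.640-fold. The call was lost without control replicate 1 (log2 fold change -0.45, edgeR adjusted p = 0.0532) and without propranolol replicate 2, where the difference of -0.48 on the log2 scale was under the fold criterion (edgeR adjusted p = 0.0116). With each library left out in turn, the adjusted p ranged from 0.000226 to 0.0532.

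Hgf encodes hepatocyte growth factor, the ligand of the receptor MET, and lies at chr5:16553495-16620152 on the plus strand. It was measured at 27.4 and 23.5 CPM in the control libraries and at 13.8 and 15.1 CPM in the propranolol libraries. The groups were well apart relative to the spread within each, at 25.5 ± 2.78 against 14.5 ± 0.915 CPM. The log2 fold change was -0.82 (SE 0.15, edgeR adjusted p = 0.00220), or 0.568-fold. With each library left out in turn, the log2 fold change of Hgf was between -0.91 and -0.65. Without control replicate 1, which was highest in fibroblast and tumor cell markers, its log2 fold change was -0.65. Fibroblasts are known to express Igf1 and Hgf, and 9 of the 12 fibroblast and tumor cell markers were lower in the same libraries, although the CD45 enrichment and the CD11b+F4/80+ gate should remove such cells and the study checked the purity of the sort. Their part in the difference of either gene was not tested.

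Igf1 and Hgf also share a low GC content, 38.0% and 39.9% of the longest transcript, against a median of 49.6% over tested genes. Over 14681 tested genes the log2 fold change rose with GC content, with a Spearman correlation of 0.577 across genes, which are not independent. Both genes belong to the decile of lowest GC content, from 30.8% to 41.2%. There the median log2 fold change was -0.94 and 60.2% of genes were called lower, so the differences of Igf1 and Hgf were smaller than the median of genes of like composition. The GC content of Ereg (39.2%) falls in the same range, and Ereg, being below the count filter, has no value with the trend removed. When this trend was taken out of each library and the test repeated, Igf1 was higher in the propranolol libraries, by 0.47 on the log2 scale (SE 0.13, edgeR adjusted p = 0.0285). Hgf was then at 0.06 (SE 0.15, edgeR adjusted p = 0.804), and the median of all tested genes had moved from -0.02 to 0.09. The direction of Igf1 and the fall of Hgf therefore depend on this choice, and whether the trend arose in the cells or in the preparation of libraries was not tested.

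**Figure D2:**
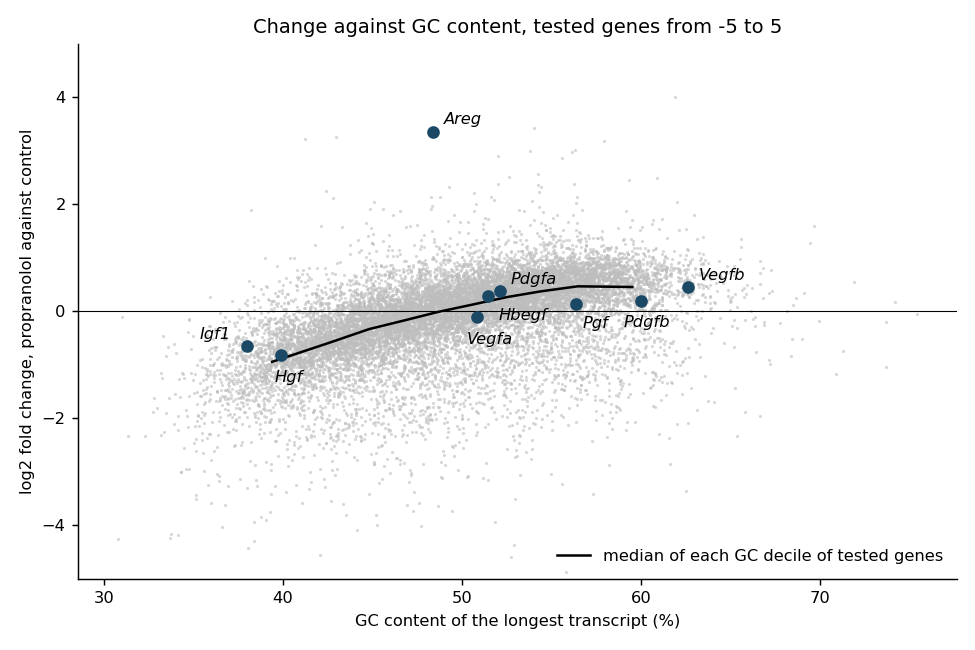
Log2 fold change between propranolol and control libraries (vertical axis) against the GC content of the longest transcript in percent (horizontal axis) for tested genes (grey; those beyond 5 in either direction are not drawn), with the 9 growth factor genes in blue and the median of each GC decile as a line. Igf1 and Hgf lie near the line at its low end, at -0.64 and -0.82, while Areg lies far above it at 3.36.

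Areg (48.4%) lies near the middle of the range, in the decile with a median log2 fold change of -0.01, and the other 6 tested members lie at higher GC content, where the decile medians were above 0. Vegfb (62.6%) and Pdgfb (60.0%) are in the decile of highest GC content, where the median log2 fold change was 0.46. With the trend removed, Vegfb was at 0.21 (edgeR adjusted p = 0.254) and Pdgfa at 0.22 (edgeR adjusted p = 0.176), so neither passed the adjusted p. Pdgfb turned from 0.19 to -0.14 (edgeR adjusted p = 0.432), and Pgf from 0.13 to -0.19 (edgeR adjusted p = 0.711). Vegfa was at -0.16 (edgeR adjusted p = 0.465) and Hbegf at 0.18 (edgeR adjusted p = 0.67). Areg alone of the 9 genes was called changed with the trend removed, when 12.6% of all tested genes were, 7.64% higher and 4.99% lower.

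**Figure D3:**
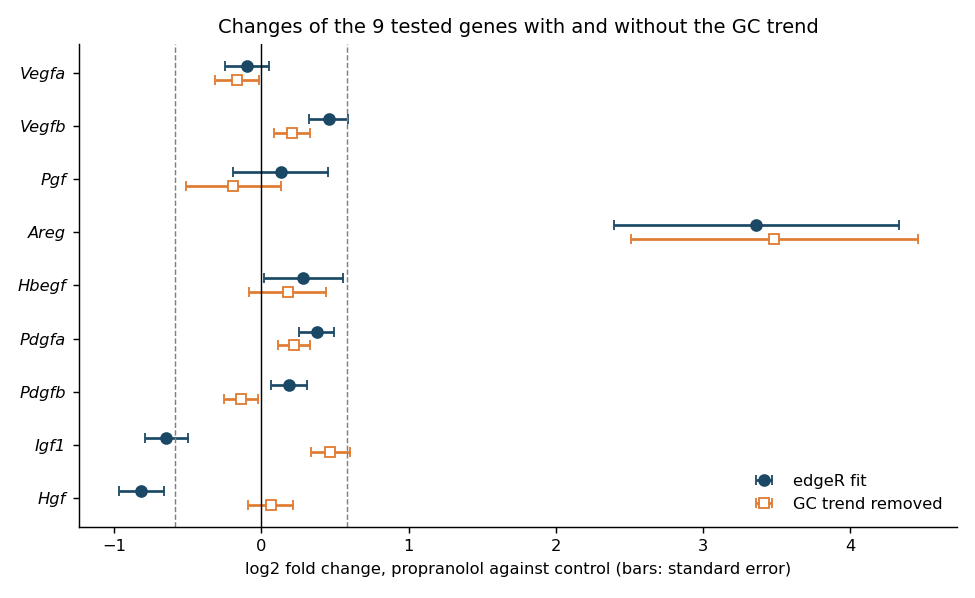
Log2 fold change of the 9 tested genes (points, with bars of 1 standard error) in the edgeR comparison (filled) and with the GC trend removed (open), with dashed lines at 1.5-fold in either direction. Areg stays far to the right of the lines in both, while Igf1 moves from -0.64 to 0.47 and Hgf from -0.82 to 0.06.

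To compare levels between the genes, counts were divided by exon length and expressed as TPM. TPM has no TMM adjustment, so it serves here to order genes within a group. Changes between the groups are those of the edgeR comparison. In control libraries, Pdgfb (133 ± 24.4 TPM) and Vegfa (126 ± 14.4 TPM) were the most abundant, and their libraries overlapped. Vegfb (41.9 ± 0.139 TPM) and Pdgfa (36.4 ± 0.185 TPM) followed, and then Igf1 (16.5 ± 1.90 TPM) and Hgf (11.8 ± 1.04 TPM). These 6 genes did not overlap with their neighbours in the order, apart from the first pair. Pgf (4.98 ± 1.67 TPM) and Hbegf (3.06 ± 0.264 TPM) were lower, and Ereg (0.590 ± 0.375 TPM) and Areg (0.454 ± 0.642 TPM) were lowest with libraries that overlapped. The order of Igf1 and Hgf depends on the length used, since with the longest transcript in place of all exons they had control means of 18.0 and 18.9 TPM. Likewise Vegfb and Pdgfa then had control means of 40.8 and 42.8 TPM. In propranolol libraries the first 7 places were the same with all exons as length. Pdgfb was at 129 ± 9.64 TPM and Vegfa at 101 ± 27.3 TPM, and their libraries did not overlap there. With the longest transcript, the propranolol means were 47.2 for Vegfb and 46.6 TPM for Pdgfa. They were 9.62 for Igf1 and 9.07 TPM for Hgf, so both pairs were ordered otherwise than in control libraries at that length. Areg (3.39 ± 0.462 TPM) was then close to Hbegf (3.15 ± 0.274 TPM), their libraries overlapping, but with the longest transcript as length they were apart at 2.61 ± 0.362 and 4.06 ± 0.345 TPM. Ereg was at 0.0871 ± 0.0588 TPM. The most abundant growth factor transcripts of these cells, Pdgfb and Vegfa, were thus not called changed, and the largest fold change was that of a gene with few counts.

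**Figure D4:**
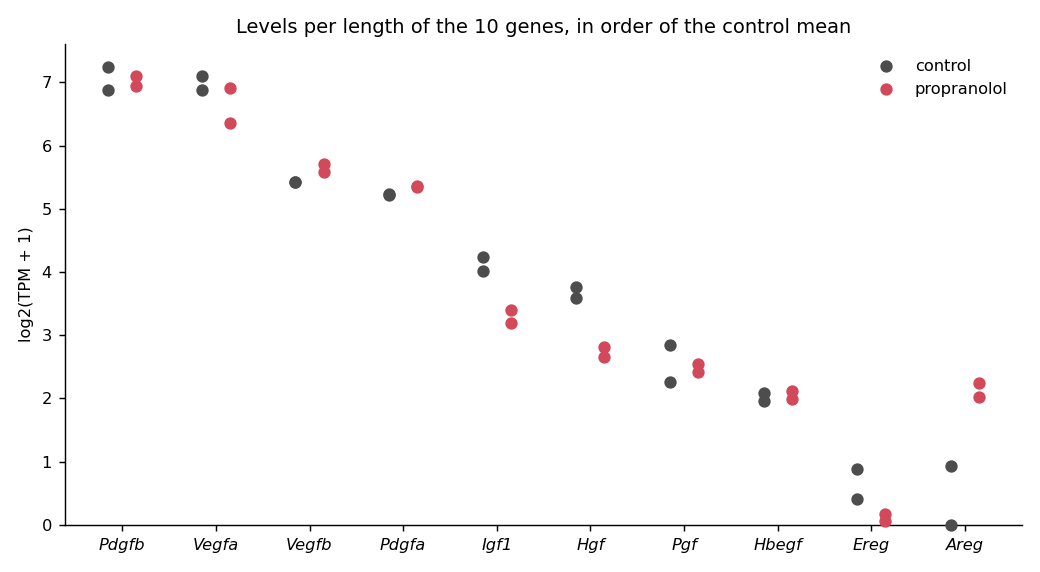
Level of each growth factor gene as log2(TPM + 1) (vertical axis) in the 2 control (grey) and 2 propranolol (red) libraries, ordered by the control mean. TPM has no TMM adjustment and serves to order genes within a group. Pdgfb and Vegfa are highest in both groups, and Areg moves from the lowest control mean to near Hbegf, from which it is apart when the longest transcript is used as length.

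The pathways around these factors were examined with 7 lists of 93 further genes, of which 80 were tested and 27 were changed, 13 higher and 14 lower. That is 33.8% of them, against the 27.8% of all tested genes. Among 10 other ligands of the same families only Pdgfc, Vegfc and Egf had enough counts, and none was changed. Pdgfc was the most abundant at 13.9 and 15.7 CPM in control and 13.3 and 11.8 CPM in propranolol libraries (log2 fold change -0.23, edgeR adjusted p = 0.312), followed by Vegfc (-0.72, edgeR adjusted p = 0.184). The EGF receptor ligands Tgfa, Btc and Epgn were too low to test.

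Of 13 receptors 12 were tested and 3 changed (median log2 fold change -0.03). The count was 5 without control replicate 2, propranolol replicate 1 or propranolol replicate 2, and 5 with the GC trend removed. Met, the receptor of HGF, was higher, at 14.4 and 16.0 CPM in propranolol against 8.97 and 7.77 CPM in control libraries (log2 fold change 0.86, SE 0.19, edgeR adjusted p = 0.00470). Igf1r, the receptor of IGF1, was likewise higher, at 33.4 and 37.9 against 23.0 and 21.4 CPM (log2 fold change 0.68, SE 0.13, edgeR adjusted p = 0.00276). Both receptor genes were also called higher with the GC trend removed, by 1.21 for Met (edgeR adjusted p = 0.00217) and 0.73 for Igf1r (edgeR adjusted p = 0.00420) on the log2 scale, a setting in which their ligand genes were not called lower. Pdgfra, a receptor of PDGF and a marker of fibroblasts, was lower, at 9.08 and 12.2 CPM against 58.5 and 23.4 CPM (log2 fold change -1.95, SE 0.35, edgeR adjusted p = 0.00185). Its highest value was in control replicate 1, where the sum of the fibroblast and tumor cell markers was also highest, and the part of such transcripts in this difference was not tested, and without that library its log2 fold change was -1.09. The most abundant receptors were the VEGF co-receptors Nrp1, at 220 and 206 against 214 and 208 CPM (log2 fold change -0.01, edgeR adjusted p = 0.928), and Nrp2, at 196 and 214 against 251 and 222 CPM (0.21, edgeR adjusted p = 0.14). Neither was called, but with the GC trend removed Nrp1 was higher by 0.65 (edgeR adjusted p = 0.00160). The EGF receptor gene Egfr had low counts and did not pass (-1.29, edgeR adjusted p = 0.0632), but was called lower without control replicate 2 (-1.84) or propranolol replicate 2 (-1.56) and stood at -0.40 without control replicate 1, and Erbb4 was at 0 in all libraries.

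Of 13 genes that shed or activate such factors 12 were tested, of which 4 were higher and 2 lower (median log2 fold change 0.39). Furin, a protease that processes many precursors and was the second most abundant of the list after Plau, rose from 412 and 416 to 653 and 715 CPM (log2 fold change 0.72, SE 0.09, edgeR adjusted p = 0.000336). Rhbdf2, encoding a partner that brings the EGF ligand sheddase ADAM17 to the cell surface, rose from 144 and 208 to 312 and 351 CPM (0.91, SE 0.15, edgeR adjusted p = 0.00131). Its paralog Rhbdf1 (0.67, edgeR adjusted p = 0.0210) lost the call without propranolol replicate 2 (0.38, edgeR adjusted p = 0.126), and Mmp9, a matrix protease that releases matrix-bound VEGF, was higher by 1.09 (edgeR adjusted p = 0.00515). Adam17 itself was not called, at 331 and 349 against 314 and 288 CPM (log2 fold change -0.18, edgeR adjusted p = 0.167). Adam10, a second sheddase, was lower at 237 and 208 against 383 and 349 CPM (-0.72, edgeR adjusted p = 0.000635), but was at -0.08 with the GC trend removed, and Plat, a plasminogen activator, was lower by 1.85 (edgeR adjusted p = 0.0112). With the GC trend removed, Furin (0.41) and Rhbdf2 (0.57) were under the fold criterion and Rhbdf1 (0.33, edgeR adjusted p = 0.221) was not called either. Without control replicate 1, the log2 fold change of Plat was -1.02 and that of Mmp9 was 1.65, and without control replicate 2 that of Mmp9 was 0.70. Neutrophils are known to express Mmp9, and the F4/80+ gate should leave them out. The sums of their markers were higher in the same libraries (151 and 183 against 311 and 327 CPM). The part of neutrophils in the difference of Mmp9 was not tested. Plau, encoding urokinase, which activates HGF, was measured at 485 and 528 CPM in control and 683 and 625 CPM in propranolol libraries, under the fold criterion (0.37, edgeR adjusted p = 0.0119).

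Of 15 inhibitors and binding proteins 12 were tested, of which 1 was higher and 6 lower (median log2 fold change -0.84). The gene that rose was Thbs1, encoding thrombospondin 1, an inhibitor of vessel growth and the most abundant of the list. It went from 464 and 374 to 1094 and 1572 CPM (log2 fold change 1.67, SE 0.16, edgeR adjusted p = 0.000125), and was at 1.68 with the GC trend removed. Igfbp4, the next in abundance, was measured at 404 and 343 CPM in control and 547 and 540 CPM in propranolol libraries, under the fold criterion (0.54, edgeR adjusted p = 0.00236). Without control replicate 1, the difference of Igfbp4 was above that criterion, at 0.72. The lower genes were led by the IGF binding proteins Igfbp5 (-3.10, edgeR adjusted p = 0.00367) and Igfbp3 (-2.58, edgeR adjusted p = 0.000279), by Thbs2 (-1.70, edgeR adjusted p = 0.00685) and by Lrig1, an inhibitor of EGF receptor signaling (-1.27, edgeR adjusted p = 0.00664). The other 2 were Igfbp6 (-1.13) and Igfbp7 (-1.02). All 6 had their highest value in control replicate 1, where the sum of the fibroblast and tumor cell markers was also highest, and the part of such transcripts in these differences was not tested. Without that library Igfbp3 was at -2.06, Igfbp5 at -1.98 and Thbs2 at -0.62 on the log2 scale. Lrig1 (-0.79), Igfbp6 (-0.49) and Igfbp7 (-0.42) were then not called.

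Of 8 other angiogenic factors, all tested, none was higher and 2 were lower (median log2 fold change -0.40). These were Ccn1, a matricellular protein gene, at 11.5 and 13.3 against 42.5 and 20.4 CPM (-1.34, SE 0.28, edgeR adjusted p = 0.00422), and Angpt1, which encodes angiopoietin 1, a stabilizer of vessels made by mural cells (-3.41, edgeR adjusted p = 0.00793). Without control replicate 1 Ccn1 was at -0.68 and was the only call left, that of Angpt1 being lost (-2.50, edgeR adjusted p = 0.178). Angpt1 was also not called with the GC trend removed (edgeR adjusted p = 0.0549). Ccn1 and Angpt1 had their highest value in control replicate 1, where the sum of the fibroblast and tumor cell markers was also highest. The part of such transcripts in the differences of Ccn1 and Angpt1 was not tested. Ang, encoding angiogenin, was with Ccn1 the most abundant of this list and stood at 29.9 and 27.1 against 37.8 and 37.3 CPM, under the fold criterion (0.40, edgeR adjusted p = 0.0256).

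Hypoxia is a known inducer of Vegfa, and of 16 genes of that pathway, all tested, 2 were higher and 2 lower (median log2 fold change 0.01). Slc2a1, the glucose transporter GLUT1, rose from 324 and 356 to 520 and 554 CPM (0.66, edgeR adjusted p = 0.000626) and was with Ldha, encoding lactate dehydrogenase (984 and 970 against 1451 and 1245 CPM, 0.46, edgeR adjusted p = 0.00409), the most abundant. Car9, a carbonic anhydrase, was higher by 0.61 (edgeR adjusted p = 0.0321), a call lost without control replicate 1 (edgeR adjusted p = 0.0747) or propranolol replicate 1 (0.169). Bnip3, a mitophagy gene, was lower by 0.93 (edgeR adjusted p = 0.000360) and Hif1a, the oxygen-regulated subunit of the transcription factor, by 0.71 (edgeR adjusted p = 0.00188). Hif1a was under the fold criterion without control replicate 1 or propranolol replicate 2 (-0.53 in both). With the GC trend removed, Bnip3 was at -0.25 and Hif1a at 0.01, and none of the 16 genes was called.

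Of 18 genes of the adrenergic and cAMP pathway 17 were tested, of which 4 were higher and 1 lower (median log2 fold change 0.36). Without propranolol replicate 1 there were 8 higher and 1 lower, and with the GC trend removed 1 higher and 1 lower. The lower gene with the trend removed was Adrb1 (-2.13, edgeR adjusted p = 0.0416). Adrb1 had few counts, 13 and 23 in control against 9 and 4 in propranolol libraries. It was not called in the main comparison (-1.81, edgeR adjusted p = 0.0502). Nr4a1 (0.90, edgeR adjusted p = 0.000619), Dusp1 (0.73, edgeR adjusted p = 0.00324) and Egr1 (0.68, edgeR adjusted p = 0.00380), which are immediate early genes, were among the higher ones, and the latter pair fell under the fold criterion without propranolol replicate 2 (0.52 and 0.47). None of these 3 was called with the GC trend removed, at 0.56, 0.48 and 0.33. Creb1, the factor that binds cAMP response elements, was lower by 0.65 (edgeR adjusted p = 0.00116) but was at 0.27 with the GC trend removed. Fos and Dusp1 were the most abundant of the list, and Fos was under the fold criterion (0.40, edgeR adjusted p = 0.0205).

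**Figure D5:**
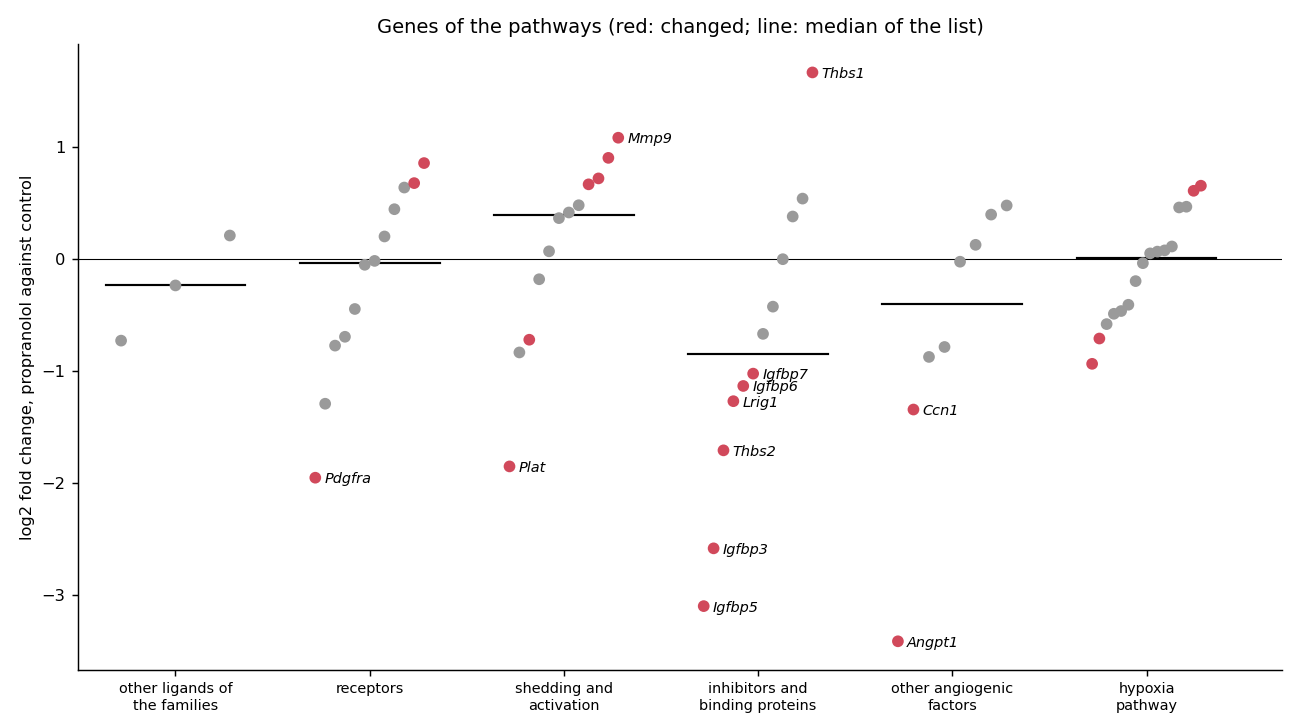
Log2 fold change (vertical axis) of each tested gene in 6 of the lists around the growth factors (all but the adrenergic and cAMP list), in order of size within a list, with changed genes in red, others in grey and the median of each list as a line. The inhibitors and binding proteins have the lowest median, -0.84, yet hold Thbs1 at 1.67, and the shedding genes have the highest, 0.39.

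The genes whose values over the 4 libraries were most like those of 2 members were found by the Euclidean distance of log2 CPM deviations, as a description. Nearest to Areg were Slc32a1 (distance 0.797), Serpina11 (0.817) and Gipr (1.0), all of them with few counts in the control libraries. Nearest to Igf1 were Mospd2 (0.0303), Dnajc25 (0.0305) and Hs2st1 (0.0350), with log2 fold changes from -0.66 to -0.65, close to the -0.64 of Igf1.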

How the data were processed

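The authors deposited counts of fragments per gene without normalization for 4 libraries. Per the labels and methods, they used STAR 2.7.1a on mm10, SAMtools 1.9 to keep alignments of high mapping quality, and featureCounts 1.6.4 for paired reads on exons of a GENCODE release that is not given in the sources used here. The options they state include no strand setting. The labels also name DESeq2 1.39.0. Genes were matched by identifier to GENCODE M21 on GRCm38 (54079 matched, 67 did not).

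Counts were compared with edgeR 4.0.16 in R 4.3.3 without covariates (TMM factors 1.08 and 1.09 in control, 0.914 and 0.931 in propranolol libraries, filterByExpr at a minimum count of 10). Standard errors came from the coefficient and its F statistic. TPM used the length of all exons. Replicates differed by more than sampling noise (chi-square per degree of freedom 11.7 in control and 15.1 in propranolol libraries). Depth set the precision of low genes, for which intervals reflect counting error alone. The edgeR and DESeq2 steps were also run on simulated counts with known changes, a common dispersion and no GC trend. Such counts cannot test the removal of the trend.

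The members and lists were chosen with earlier results of these data known. All members were named. Of each pathway list, up to 4 changed genes a direction by size and the 2 most abundant genes were named, of each marker list the 2 most abundant and the defining markers at 0, and for the changed members with the largest change and the highest CPM the 3 genes with the most similar values. Other named genes were chosen after their values were seen. Alternatives were DESeq2 1.42.0 (test and size factors), limma-voom 3.58.1, glmTreat, other scalings, filters and thresholds, each library left out, the replicate number as a block, and removal of the GC trend, fitted in each library to log2 CPM deviations as a natural spline (5 degrees of freedom). The result of 1 changed gene of the adrenergic and cAMP list is not reported here.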

Additional observations from a re-analysis of the deposited data

How the results depend on the processing

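Of the 9 tested growth factor genes, 3 were changed. The count was 0 with glmTreat against 1.5-fold, where adjusted p was 0.0771 for Areg (3.36), 0.504 for Igf1 (-0.64) and 0.162 for Hgf (-0.82). It was 1 with the GC trend removed, with or without the replicate block, 5 at any fold, 1 above 1.5 on the log2 scale, and 2 to 3 with a library left out. Without each library in turn, log2 fold changes ranged from -0.33 to 0.14 for Vegfa, -0.19 to 0.59 for Pgf, 2.10 to 8.24 for Areg (the last with no control count left, so no estimate of size), -0.80 to -0.45 for Igf1 and -0.91 to -0.65 for Hgf. Igf1 was at -0.57 without a count filter. The GC trend removal turned Pgf (-0.19, and -0.18 with the block), Pdgfb (-0.14 and -0.13), Igf1 (0.47 and 0.46) and Hgf (0.0635 and 0.0626). Scaling by library size alone turned Pgf (-0.10) and Pdgfb (-0.0475). It moved the median of all genes by -0.23, with 609 genes higher and 3497 lower, against 1798 and 2286 with TMM. The cause was not tested.

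Over all genes, 4084 were changed, 1093 with glmTreat, 1855 with the GC trend removed (2128 with the block), 6204 at any fold, 728 above 1.5 on the log2 scale and 3615 to 4329 with a library left out. Of the 7 pathway lists 27 genes were changed, 7 with glmTreat, 18 with the GC trend removed (23 with the block) and 25 to 33 with a library left out. Same-numbered libraries share only a number, with a correlation of deviations of 0.169 over 2 pairs. The fit with the replicate number as a block changed 3 growth factor genes, 4362 genes in all and 30 of the lists, among them 5 receptors against 3 without it (6 with the GC trend removed as well). The other alternatives gave the same calls or counts within 1.5 times the value. Low counts limit Areg and Ereg most.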

Other observations

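Areg and Ereg lie in a stretch of chromosome 5 that also holds a cluster of chemokine genes. Genes within 500000 bases of Areg are given as a description. The window was set around a gene already called changed, so its share of changed genes was not compared with that of all tested genes. The chemokine genes Cxcl3 (4.11 and 4.30 CPM in control, 38.01 and 42.6 CPM in propranolol libraries, log2 fold change 3.25, edgeR adjusted p = 2.8e-05), Cxcl2 (59.0 and 69.1 against 154 and 194.5 CPM, 1.44, edgeR adjusted p = 0.000103) and Cxcl1 (2.97 and 2.51 against 4.98 and 6.16 CPM, 1.02, edgeR adjusted p = 0.0221), which attract neutrophils, were changed in the same direction as Areg, as were Pf4 (0.86) and Ppbp (2.25). Mthfd2l, a folate enzyme gene between the chemokines and Ereg, was not called (-0.68, edgeR adjusted p = 0.234). Cxcl5, a further chemokine gene of the cluster, was too low to test, with 3 and 18 counts in control and 9 and 2 in propranolol libraries, and Cxcl15 had at most 1 count in any library. Epgn and Btc, further EGF receptor ligand genes of the stretch, had at most 4 counts in any library.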
